A study of Homo sapiens with 4 samples.

Results

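The MYC, MAX and MXD network was followed through 10 genes: MYC, MYCN and MYCL, their partner MAX, the MXD-type repressors MXD1, MXI1, MXD3 and MXD4, and the large MAX partners MNT and MGA. A gene was taken from array rows that carry its symbol and no other, and the row of the highest mean was to be kept where a symbol had several. By this rule 9 of the 10 genes were measured, each on 1 row, among 22465 genes in all. MXD4 shares its row with another annotated gene and is not analysed here. The cells were MHCC-LM3, an established human hepatocellular carcinoma line, exposed for 24 h either to 50 µM zerumbone, which is a sesquiterpene from gingers, or to DMSO, its solvent. Each group had 2 whole-transcript arrays. All samples come from this 1 line. Separate cultures are not mentioned in the labels, so the spread behind every p-value is that between samples of a group and may be technical.

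MYC proteins are transcription factors of the basic helix-loop-helix leucine zipper class. They bind DNA as dimers with MAX, preferably at the E-box CACGTG, and raise the expression of genes for growth, nucleotide synthesis and ribosome assembly. MXD proteins and MNT dimerise with the same MAX and bind the same boxes, but recruit the SIN3 and histone deacetylase corepressors, and MGA brings MAX into a Polycomb complex. Gain or overexpression of MYC is frequent in liver cancer, while MXD1 is known as a gene of cells that leave the cycle and differentiate.

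The promoters of the members with the largest rise and the largest fall under zerumbone are printed to show what E-boxes lie just before their starts. They are the 250 bases before the start in RefSeq on GRCh38.p14, in lower case with every CANNTG, the general E-box, in capitals.
MXD1 at chr2:69914859-69915108, plus strand: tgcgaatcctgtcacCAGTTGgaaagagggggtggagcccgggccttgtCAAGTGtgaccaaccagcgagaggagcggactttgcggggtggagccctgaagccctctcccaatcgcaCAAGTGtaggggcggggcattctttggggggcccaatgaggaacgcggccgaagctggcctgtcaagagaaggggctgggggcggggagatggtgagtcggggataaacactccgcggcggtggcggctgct
MNT at chr17:2401061-2401310, minus strand: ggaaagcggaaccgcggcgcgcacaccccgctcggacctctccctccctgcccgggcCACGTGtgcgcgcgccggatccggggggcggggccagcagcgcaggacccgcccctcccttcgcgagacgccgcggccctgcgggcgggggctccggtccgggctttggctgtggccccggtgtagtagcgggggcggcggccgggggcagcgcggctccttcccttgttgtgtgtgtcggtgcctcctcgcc

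MNT has the network's own box CACGTG, with its first base 193 bases before the start and no other CANNTG in the window. MXD1 has 3 general E-boxes and no CACGTG. The box CACGTG reads the same on both strands and is itself a CANNTG. It was present in 6.34% of the 35116 promoter windows of this length, whereas CANNTG was present in 61.8%. Windows of 8 of the 9 measured members were searched, and MNT was the only one of those 8 with CACGTG in any of its windows. MYC was left out of this search, so nothing is said of its promoter. A match describes letters and is not evidence of binding, and no binding was measured.

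Zerumbone-treated cells had more MXD1, MAX and MGA transcript and less MNT and MYC transcript than DMSO-treated cells. Of the 9 measured members 3 rose and 2 fell at an adjusted p under 0.05 in limma, and 4 did not pass. MYC was the only MYC gene above background, and its difference was the smallest of the 5 that passed, at 1.32-fold. MXD1 moved most, at 6.83-fold. Over all genes the same threshold called 36.0%, with 18.4% higher and 17.7% lower.

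A gene is called above background here when it lies above the 95th percentile of the 23 antigenomic background rows of that array, which was between 4.54 and 5.10 log2 units over the 4 arrays. Of the members, 6 were above it on all 4 arrays, and 5 of these 6 passed, while 65.4% of the 10749 genes above background on at least 2 arrays passed. The number of members called is therefore not set apart from that of other expressed genes. The values of the arrays did not overlap between groups for 6 of the 9 members, against 69.9% of all genes. In bulk RNA, fewer cells that express a gene and less RNA per cell cannot be told apart.

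**Figure D1:**
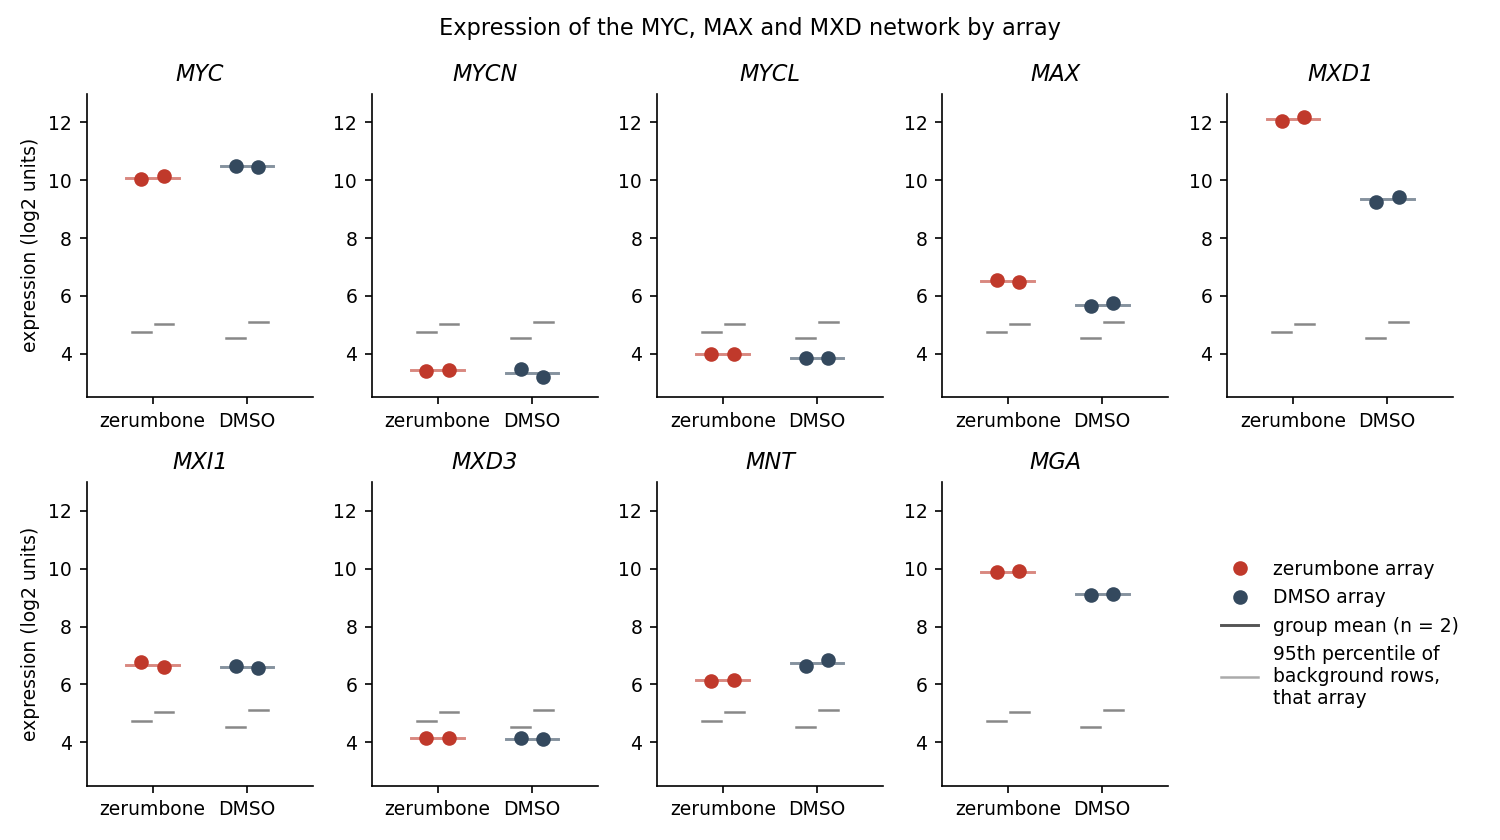
Expression in log2 units of the 9 measured network genes on each zerumbone array (red, left) and each DMSO array (dark, right), with group means (n = 2 each) as coloured lines and the 95th percentile of the background rows of each array as grey lines. MXD1, MAX and MGA lie higher and MYC and MNT lower on both zerumbone arrays than on both DMSO arrays, and MYCN, MYCL and MXD3 lie under the grey lines. Levels of different genes come from different probes and are not comparable between panels.

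MYC, the broadly expressed member of its family, had 10.03 and 10.13 log2 units on the zerumbone arrays, against 10.50 and 10.47 on the DMSO arrays. Both zerumbone arrays lay below both DMSO arrays, with a gap of 0.34. The group means were 10.08 ± 0.069 under zerumbone and 10.49 ± 0.025 under DMSO (SD, n = 2 each). The difference of -0.40 had a 95% confidence interval from -0.58 to -0.23 and an adjusted p of 0.00861 in limma. The call was lost without either DMSO array. It had an adjusted p of 0.0738 in limma without DMSO replicate 1, where the difference was -0.39, and of 0.0600 without DMSO replicate 2, where it was -0.42. Among genes above background, 43.9% had a smaller absolute change than MYC.

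MYCN, which acts mainly in neural and other embryonic tissue, was under background on every array. It had 3.41 and 3.44 log2 units under zerumbone, against 3.47 and 3.20 under DMSO, and the groups overlapped. MYCL, the family member first found in lung cancer, was also under background, at 3.986 and 3.996 under zerumbone and 3.857 and 3.868 under DMSO. Its adjusted p in limma was 0.168 and that of MYCN was 0.555. Values in this range do not show whether either gene is expressed at a low level.

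MAX, the partner that MYC, MXD, MNT and MGA proteins share, had 6.54 and 6.47 log2 units on the zerumbone arrays, against 5.65 and 5.74 on the DMSO arrays. All 4 values were above background, and the zerumbone values lay 0.73 above the DMSO values at the nearest pair. The means were 6.50 ± 0.045 under zerumbone and 5.70 ± 0.063 under DMSO (SD, n = 2 each). MAX rose 1.75-fold, by 0.81 on the log2 scale with a 95% confidence interval from 0.63 to 0.99 and an adjusted p of 7.97e-04 in limma. Over the alternatives the difference ranged from 0.76 to 0.85.

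MXD1, a repressor that takes the place of MYC on MAX, had 12.04 and 12.18 log2 units on the zerumbone arrays, against 9.24 and 9.43 on the DMSO arrays. The groups were separated by 2.60, which is far wider than the gap between the arrays of either group. The means were 12.11 ± 0.096 under zerumbone and 9.34 ± 0.139 under DMSO (SD, n = 2 each). MXD1 rose by 2.77 on the log2 scale, with a 95% confidence interval from 2.52 to 3.02 and an adjusted p of 7.55e-05 in limma. Its absolute change exceeded that of 99.0% of all genes and of 98.0% of the genes above background. Leaving out any array left the difference between 2.67 and 2.87.

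The other measured MXD genes did not pass the threshold. MXI1, a repressor of the same class, was above background at 6.77 and 6.60 log2 units under zerumbone, against 6.64 and 6.56 under DMSO. The groups overlapped, and the difference of 0.09 had a 95% confidence interval from -0.14 to 0.31 and an adjusted p of 0.490 in limma. MXD3, which is linked to cycling cells, was under background at 4.13 and 4.14 under zerumbone and at 4.16 and 4.10 under DMSO. Its adjusted p in limma was 0.931.

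MNT, a widely expressed MAX partner that counters MYC, had 6.12 and 6.15 log2 units on the zerumbone arrays, against 6.65 and 6.86 on the DMSO arrays. The groups did not overlap, although the DMSO arrays differed from each other more than the zerumbone arrays did. The means were 6.14 ± 0.019 under zerumbone and 6.75 ± 0.147 under DMSO (SD, n = 2 each). MNT fell 1.53-fold, by 0.62 on the log2 scale, with a 95% confidence interval of the difference from -0.85 to -0.38 and an adjusted p of 0.00512 in limma. MNT and MXD1 are both MAX-binding repressors, and they moved in opposite directions.

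MGA, a very large protein with a T-box besides its helix-loop-helix, had 9.88 and 9.91 log2 units on the zerumbone arrays, against 9.10 and 9.13 on the DMSO arrays. The arrays of each group lay close together, and the groups were 0.75 apart at the nearest pair. The means were 9.89 ± 0.024 under zerumbone and 9.12 ± 0.018 under DMSO (SD, n = 2 each). MGA rose 1.71-fold, by 0.78 on the log2 scale with a 95% confidence interval from 0.62 to 0.93 and an adjusted p of 5.99e-04 in limma. The intervals of MAX and MGA overlap over most of their length, and the difference between the changes of both genes was not tested.

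**Figure D2:**
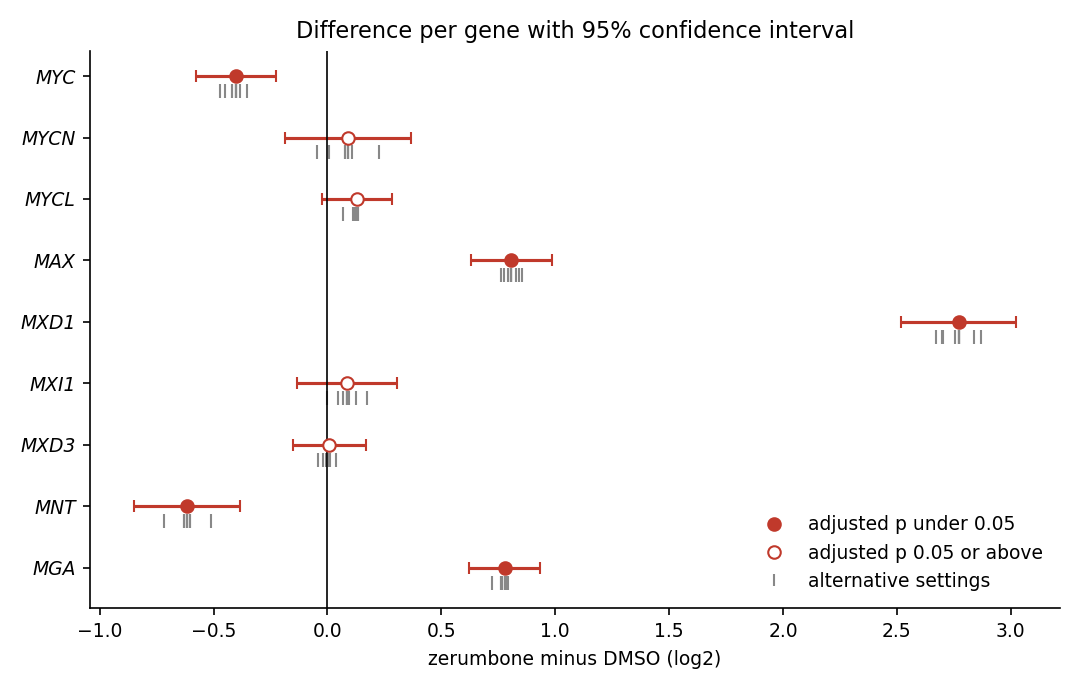
Zerumbone minus DMSO in log2 units for the 9 measured network genes, with 95% confidence intervals from limma, filled where the adjusted p is under 0.05, and with the values under the alternative settings as grey ticks below. The interval of MXD1, from 2.52 to 3.02, lies to the right of every other, and those of MYC and MNT lie below 0.

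Against the 10749 genes above background, 28.7% had a difference at or below that of MYC and 21.9% at or below that of MNT. The shares were 85.9% for MAX, 85.0% for MGA and 99.2% for MXD1. MXI1 lay near the middle, with 54.5%. MXD1 lay farthest from the middle of the 6 members above background, which describes its place and is not a test.

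**Figure D3:**
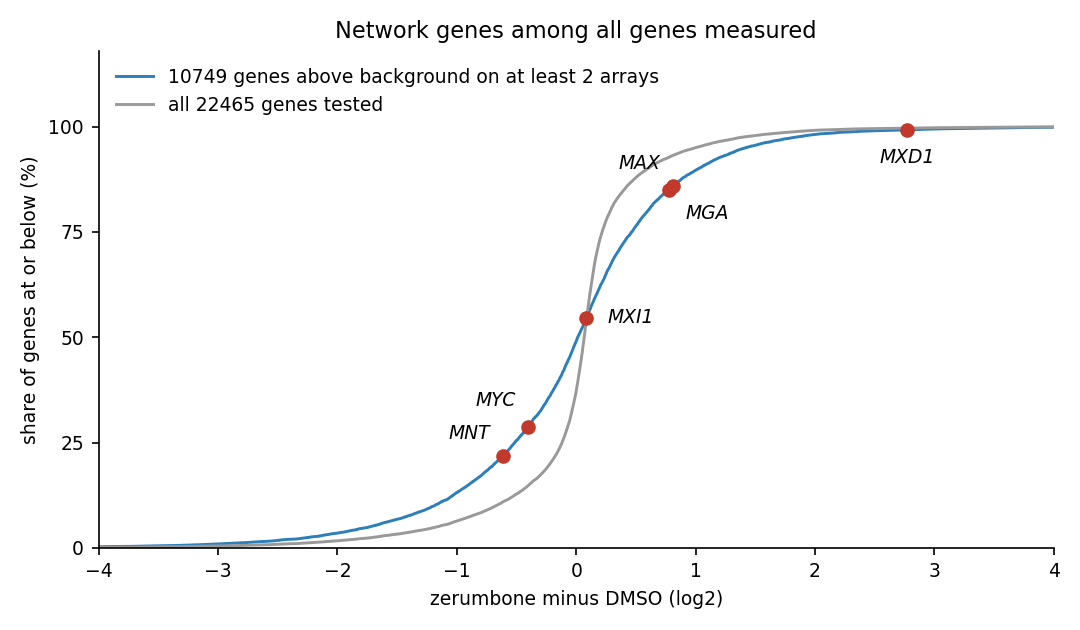
Cumulative share of genes in percent against zerumbone minus DMSO in log2 units, for the 10749 genes above background on at least 2 arrays (blue) and all 22465 genes (grey), with the 6 network genes above background placed on the blue curve. MXD1 sits at 99.2%, MAX and MGA near 85%, and MYC and MNT at 28.7% and 21.9%.

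The genes whose values over the 4 arrays ran closest to each called member were sought among the genes above background, by the root mean square difference after each gene's own mean was subtracted. Closest to MXD1 were HSPH1, a chaperone of the heat shock protein family, at 0.0409 log2 units, then C9orf72 at 0.0533 and ZNF235 at 0.0554. Closest to MYC were DDX19B at 0.00783, SUGP2 at 0.00831 and NCEH1 at 0.00841. Closest to MAX were AREL1, URGCP and RDH13, between 0.00557 and 0.0124. CEP41, CENPQ and GNE ran closest to MNT, and DMAC2, SH3BP4 and TECRP1 to MGA. With 4 arrays in 2 groups this likeness reflects mainly a group difference of the same size.

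The branch of the network that senses glucose uses MLX in the place of MAX, and 2 of its 3 genes fell. Those 2 were above background, where 33.4% of genes fell and 32.0% rose. With so few genes the count is not set apart from these shares. MLX had 9.17 and 9.11 log2 units on the zerumbone arrays, against 10.65 and 10.72 on the DMSO arrays, and fell by 1.55 with an adjusted p of 1.05e-04 in limma. MLXIP, known as MondoA, had 9.10 and 9.15 under zerumbone and 9.78 and 9.73 under DMSO, and fell by 0.63 with an adjusted p of 0.00137 in limma. The arrays of the groups did not overlap for either gene, which also held for 69.9% of all genes. MLXIPL, known as ChREBP, was under background in both groups, with an adjusted p in limma of 0.760.

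Cofactors through which MYC activates genes included both falls and a rise. Of 13 measured coactivator genes 8 fell, 1 rose and 4 did not pass, with a median difference of -0.65, against 0.01 over genes above background. All 13 were above background, where 33.4% of genes fell and 32.0% rose. KAT2A, a histone acetyltransferase, had 6.67 and 6.71 log2 units under zerumbone, against 8.64 and 8.63 under DMSO, and fell by 1.95. RUVBL1 (-1.42), an ATPase of chromatin remodelling complexes, and SMARCB1 (-1.22), a SWI/SNF subunit, fell as well. CCNT1, the cyclin of the elongation kinase P-TEFb, rose by 0.60. The adjusted p-values of these 4 genes in limma ran from 6.10e-05 to 0.00226. TRRAP, also among the 8 falls, fell by 0.33 and lost the call over all transcript clusters, at an adjusted p of 0.0726 in limma. It also lost the call without either DMSO array, at a difference of -0.33 each time, and without zerumbone replicate 2, at -0.28.

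MXD and MNT proteins recruit the SIN3 corepressor. Of 14 measured genes of the SIN3 complex 6 fell (42.9%), 5 rose (35.7%) and 3 did not pass, and the median difference was -0.02. All 14 were above background on at least 2 arrays, where 33.4% of genes fell and 32.0% rose, so these shares are near those of other expressed genes. ING1, one of the 5 rises, was above background on only 1 array of each group. It rose by 0.29 and lost the call in the fit over all transcript clusters, at an adjusted p of 0.108 in limma. It also lost the call without zerumbone replicate 2 and without either DMSO array, at differences from 0.24 to 0.32. SIN3A, one scaffold of the complex, fell by 0.90, while SIN3B, its other scaffold, rose by 0.65. FAM60A (-1.28), also named SINHCAF, and HDAC1 (-0.69), a histone deacetylase, fell too. ARID4B (0.90) and ING2 (0.55), a reader of methylated histones, rose. The adjusted p-values of these 6 genes in limma ran from 1.31e-04 to 0.00525.

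Of 9 measured partners of MGA in its Polycomb complex 3 rose (33.3%), 3 fell (33.3%) and 3 did not pass, with a median of 0.10. All 9 were above background, and the shares are near the 32.0% higher and 33.4% lower among genes above background. RYBP, a Polycomb subunit, had 10.72 and 10.49 log2 units under zerumbone, against 8.75 and 8.80 under DMSO, and rose by 1.83. TFDP1, the dimer partner of E2F factors, had 5.49 and 5.79 under zerumbone, against 7.73 and 7.67 under DMSO, and fell by 2.06. CBX3 (-1.11), a heterochromatin protein, and L3MBTL2 (-0.62) fell. E2F6 rose by 0.42 and TFDP2 by 0.29, and both lost the call without DMSO replicate 1, at adjusted p-values of 0.0609 and 0.129 in limma. TFDP2 also lost it without DMSO replicate 2, at 0.107, without zerumbone replicate 2, at 0.0629, and in the fit over all transcript clusters, at 0.0866.

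Of 14 genes that act on the stability of the MYC protein 9 fell (64.3%), 3 rose (21.4%) and 2 did not pass, with a median of -0.56. The list mixes genes that stabilise MYC with genes that act in its turnover, so the count and median give no direction for the protein. All 14 were above background, where 33.4% of genes fell and 32.0% rose. SKP2, a ubiquitin ligase subunit that acts on MYC, had 6.995 and 7.121 log2 units under zerumbone, against 9.524 and 9.709 under DMSO, and fell by 2.56. AURKA (-2.48), a mitotic kinase that stabilises MYCN, and CIP2A (-1.50), a phosphatase inhibitor that protects MYC, fell too. FBXO32 rose by 1.53 and the deubiquitinase USP36 by 0.46. PPP2R5A, a subunit of protein phosphatase 2A, rose by 0.36 and lost the call without DMSO replicate 1 or 2, at adjusted p-values of 0.0597 and 0.0786 in limma. FBXW7, the ligase subunit best known for MYC turnover, differed by -0.19 with an adjusted p of 0.213 in limma. GSK3B, among the 9 falls, fell by 0.37 and lost the call over all transcript clusters, at an adjusted p of 0.0640 in limma. It also lost the call without zerumbone replicate 2 and without either DMSO array, at differences from -0.40 to -0.31.

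Of 14 genes whose products act on MYC transcription or bind its mRNA 10 fell (71.4%), 2 rose (14.3%) and 2 did not pass, with a median of -0.89. All 14 were above background, where 33.4% of genes fell and 32.0% rose. The largest falls were in SYNCRIP (-1.72), an RNA-binding protein, TCF7L2 (-1.63), a Wnt effector, and HNRNPD (-1.59), which binds AU-rich mRNA, with adjusted p-values in limma from 9.80e-05 to 1.24e-04. IGF2BP3 fell by 0.41 and lost the call without DMSO replicate 1, at a difference of -0.38. IGF2BP2, an RNA-binding protein, had 10.27 and 10.21 log2 units under zerumbone, against 8.62 and 8.66 under DMSO, and rose by 1.60. The other rise was in CNBP, by 0.28, and its call was lost whichever of the 4 arrays was left out, at adjusted p-values in limma from 0.0643 to 0.222, and also after median centring, at 0.0639, after cyclic loess, at 0.134, and in the fit over all transcript clusters, at 0.131.

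Of 11 other factors that bind E-boxes or MYC 4 fell (36.4%), 2 rose (18.2%) and 5 did not pass, with a median of 0.08. Of the 11, 6 were above background on at least 2 arrays, where 33.4% of genes fell and 32.0% rose, against 17.7% and 18.4% of all genes, so the counts are not set apart from those of other genes. BHLHE40 (-1.12), a helix-loop-helix repressor, TFAP4 (-0.97), which MYC is known to induce, and USF2 (-0.50) fell. TFAP2A (-0.45) fell too, but was under background in the zerumbone group and above it on only 1 DMSO array. Its call was lost without DMSO replicate 1, at a difference of -0.40. TFE3, a lysosomal gene regulator, rose by 1.05. USF1, which dimerises with USF2, rose by 0.38 and lost the call without DMSO replicate 1 or 2, at adjusted p-values of 0.0740 and 0.0822 in limma.

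Of 56 measured genes that MYC is known to induce 45 fell, 5 rose and 6 did not pass, and the median difference was -0.96, against 0.07 over all genes and 0.01 over genes above background. Of the 56, 54 were above background on at least 2 arrays, where 33.4% of genes fell. DCTPP1, a nucleotide pyrophosphatase, had 8.29 and 8.66 log2 units under zerumbone, against 11.81 and 11.72 under DMSO, and fell by 3.29. MCM4 (-3.10) and MCM5 (-2.65), subunits of the replicative helicase, UTP20 (-2.38), a ribosome assembly factor, and APEX1 (-2.16), a DNA repair nuclease, had the next largest falls. The adjusted p-values of these 5 genes in limma ran from 4.37e-05 to 9.79e-05.

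The 5 rises went against the name of that list. SUPV3L1, a mitochondrial RNA helicase, rose by 1.17, RRP12, a ribosome export factor, by 1.13 and MPHOSPH10, a nucleolar protein, by 0.74. PRMT3, an arginine methyltransferase, rose by 0.43 and HSPD1, the mitochondrial chaperonin, by 0.27. Without DMSO replicate 1 the number of rises was 3, with PRMT3 at an adjusted p of 0.126 and HSPD1 at 0.140 in limma. Without DMSO replicate 2 it was also 3, with PRMT3 at 0.0539 and HSPD1 at 0.138. PRMT3 also lost the call without zerumbone replicate 2, at 0.0776, and HSPD1 without zerumbone replicate 1, at 0.0763. In the fit over all transcript clusters PRMT3 had an adjusted p of 0.0685 and HSPD1 of 0.105 in limma, and after cyclic loess HSPD1 had 0.0896. Some of the 45 falls lost their call as well. Over all transcript clusters SLC19A1 (-0.38) had an adjusted p of 0.0547 in limma. SLC29A2 (-0.26), under background in the zerumbone group and above it on only 1 DMSO array, had 0.128 there. SLC29A2 also lost the call whichever array was left out, at differences from -0.31 to -0.22. SLC19A1 also lost it without zerumbone replicate 2 and without either DMSO array, at differences from -0.44 to -0.33. PES1 and RRP9 lost the call without DMSO replicate 2. Many genes of the list serve ribosome assembly or DNA replication, and what part changes in MYC or MXD1 have in their values was not tested.

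Genes of this list that carry CACGTG were set beside those that do not. Promoter windows were at hand for 46 of the 56, and 17 of the 46 (37%) held CACGTG, against 9.41% of 15247 tested genes with a window. The median difference was -1.50 for the 17 with the box, of which 12 fell and 2 rose. It was -0.87 for the 29 without it, of which 25 fell and 1 rose. Over all tested genes with a window, the medians were 0.04 with the box and 0.06 without it. Of these genes, 353 of 1434 fell with the box and 2801 of 13813 without it. Among the 8015 genes above background on at least 2 arrays with a window, 11.2% held CACGTG. There 336 of 897 fell with the box, at a median of -0.06, and 2547 of 7118 without it, at -0.01. The difference between the subsets of the list was not tested.

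Of 11 measured genes that MYC is known to repress 4 rose (36.4%), 2 fell (18.2%) and 5 did not pass, with a median of 0.31. Of the 11, 9 were above background on at least 2 arrays, and the 4 rises and 2 falls were all among these 9. Of all genes above background 32.0% rose and 33.4% fell, and with so few genes the counts are not set apart from these shares. DDIT3, a stress-induced factor also named CHOP, had 11.41 and 11.11 log2 units under zerumbone, against 7.29 and 7.43 under DMSO, and rose by 3.90. GADD45A and NDRG1, which respond to stress and growth arrest, rose by 3.35 and 2.93, and CDKN1A, an inhibitor of cyclin-dependent kinases, by 1.54. THBS1, a matrix protein that inhibits vessel growth, had 7.11 and 7.03 under zerumbone, against 11.37 and 11.35 under DMSO, and fell by 4.29. CEBPA, a hepatocyte factor, fell by 0.61, and its call was lost without zerumbone replicate 2, at an adjusted p of 0.0748 in limma, without DMSO replicate 2, at 0.116, and in the fit over all transcript clusters, at 0.0584.

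**Figure D4:**
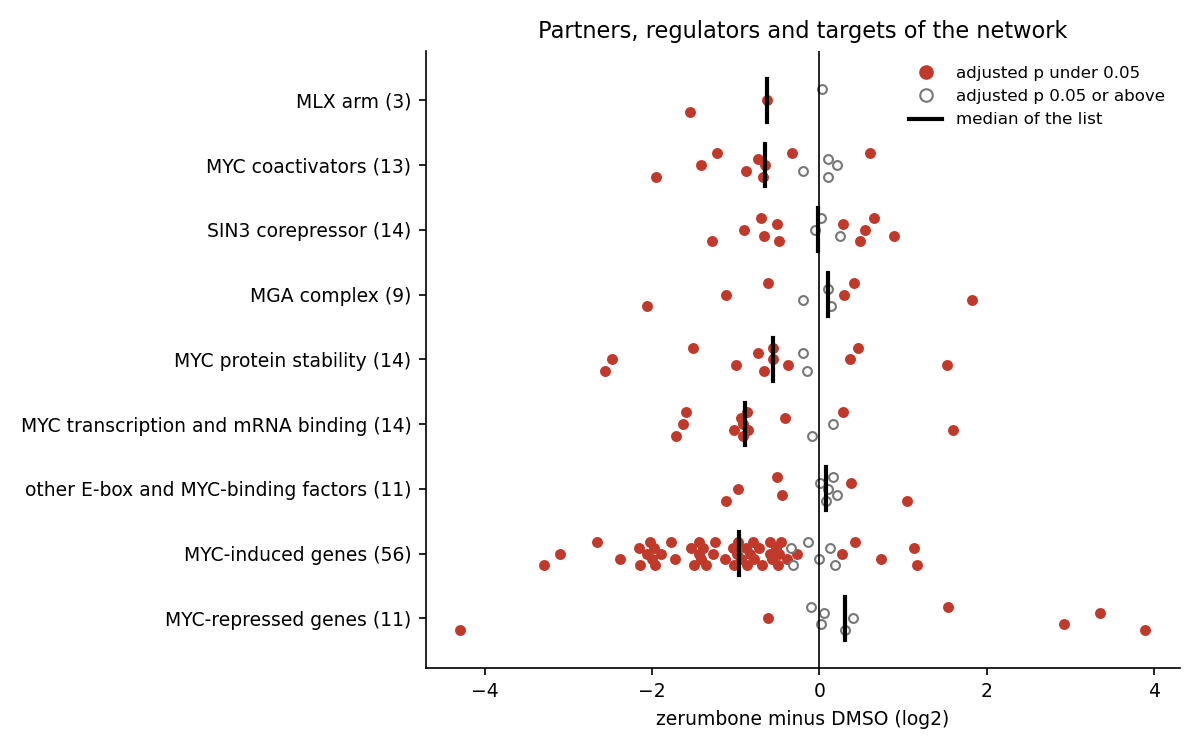
Zerumbone minus DMSO in log2 units for every measured gene of 9 lists of partners, regulators and targets, with the number of genes in brackets, filled red where the adjusted p is under 0.05, and the median of each list as a black bar. The MYC-induced genes lie mostly left of 0 with a median of -0.96, whereas the SIN3 and MGA complexes have points on both sides.

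The arrays of a group were close, with a Pearson correlation across the 22465 genes, which are not independent replicates, of 0.998 between the zerumbone arrays, 0.999 between the DMSO arrays and 0.968 to 0.969 between groups. As a check of the cell type, epithelial markers were set beside others. Of all genes above background 33.4% fell and 32.0% rose. KRT8, KRT18, KRT19 and CDH1 were above background in both groups and all 4 fell, KRT18 and CDH1 with calls lost without DMSO replicate 1, at adjusted p-values of 0.0621 and 0.120 in limma. CDH1 also lost the call without DMSO replicate 2, at 0.0634, without zerumbone replicate 1, at 0.0572, and in the fit over all transcript clusters, at 0.0593. EPCAM, the fifth measured epithelial marker, was under background in both groups, with a difference of 0.06 and an adjusted p of 0.522 in limma. The mean level of the 5 was 9.50 to 9.55 under zerumbone and 10.33 to 10.38 under DMSO. Of 7 measured hepatocyte markers 6 were under background on all arrays, and ALB was above it on only 1 zerumbone array. The mean level of the hepatocyte list was 3.98 to 4.01 under zerumbone and 3.83 to 3.93 under DMSO. All 5 leukocyte markers and 4 of 5 endothelial and 3 of 4 fibroblast markers were under background in both groups, with KDR, a receptor for vascular growth factor, and DCN, a matrix proteoglycan, as the exceptions. KDR was above background on all 4 arrays and fell by 1.93, with an adjusted p of 1.28e-04 in limma. PECAM1, an endothelial adhesion protein, fell by 0.25 while under background, and DCN, above background on 1 DMSO array, fell by 0.32. Their adjusted p-values in limma were 0.0345 and 0.0416, and both calls were lost whichever array was left out, at 0.0700 to 0.193 for PECAM1 and 0.0687 to 0.207 for DCN. Over all transcript clusters they were 0.130 for PECAM1 and 0.119 for DCN, and with the mean of its rows DCN had 0.792. The mean level of the endothelial list was 4.09 to 4.14 under zerumbone and 4.547 to 4.548 under DMSO, that of the fibroblast list 3.84 to 3.93 under zerumbone and 3.93 to 3.95 under DMSO, and that of the leukocyte list 3.69 to 3.74 under zerumbone and 3.608 to 3.615 under DMSO. The part that such markers have in the results was not tested.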

How the data were processed

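The table deposited by the authors holds log2 values of 4 arrays. The submitters' processing notes name RMA and the Affymetrix Expression Console, and versions are not given in the sources used here. RMA subtracts a background, makes the arrays' distributions of probe values equal and summarises probes per transcript cluster. The deposited cluster medians still differed, at 3.96 and 3.92 under zerumbone and 3.86 and 3.83 under DMSO. The median difference was 0.07 over all genes and 0.08 over the 23 background rows. The deposited log2 values reach 19.93, above a scanner's range, so a further step is possible and folds are on the deposited scale. The row names belong to a transcriptome array, although the design text names an exon array. The genome build is not given in the sources used here.

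Of 70523 rows, 67528 are transcript clusters, and the other 2995, controls and single probe regions, were not tested. Through the annotation 23781 clusters carry 1 symbol, 1543 several and 42204 none, and 22465 genes were tested. Differences are zerumbone minus DMSO, fitted with lmFit and eBayes of limma 3.58.1 (R 4.3.3) over all genes, two-sided, with Benjamini-Hochberg adjustment and a threshold of 0.05. The fit had 2 residual degrees of freedom, to which eBayes added 2.88. Intervals are not adjusted. "Rose" and "fell" mean past the threshold. The number of arrays limits the precision. The labels carry no replicate number and no batch, and the running numbers in the titles separate the groups, so an order of processing that followed them cannot be told apart from the treatment.

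The members and gene lists were chosen with earlier results of these data known, from general knowledge of the network, and lists overlap in function. Genes were named as all members, the MLX genes, and up to 3 called genes in each direction of every other list, with up to 5 for the MYC-induced and MYC-repressed genes. FBXW7 and genes named only because a call was lost fall outside that rule and were named after values were seen. The cell type markers have lists of their own, and which of them are named here was settled after values were seen. Promoters are from RefSeq on GRCh38.p14, matched by symbol. The steps were tested on simulated data. Plots were drawn with matplotlib 3.10.9.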

Additional observations from a re-analysis of the deposited data

How the results depend on the processing

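The member genes were refitted under 11 alternatives: median centring, cyclic loess, dim genes left out, a variance trend without and with robust fitting, the mean of a gene's rows, all transcript clusters, and leaving out each of the 4 arrays. Of 96 member values under them, 94 kept their direction and their side of the threshold where the member was called, or stayed not called. The 2 exceptions are the call of MYC without either DMSO array. The number of members higher was 3 under every alternative, and the number lower was 1 to 2 when an array was left out, with 1 without either DMSO array. Over all genes the number higher was 2557 to 3822 and the number lower 2854 to 3642 when an array was left out, against 4125 and 3966 in all 4 arrays. Fitted over all clusters, MYC had an adjusted p of 0.0416 in limma. In that fit 13 called genes of the other lists lost their call, at adjusted p-values of 0.0547 to 0.131 in limma. Among them were TFDP2, CNBP, PRMT3, HSPD1, CEBPA and CDH1. The share of calls that were higher was 51.0%, against 48.9% after median centring and 46.8% after cyclic loess. When an array is left out its group has a single array, which is assumed to vary like the other group. No paired analysis was possible because the labels carry no replicate numbers. MXD3, MYCN and MYCL were under background on all 4 arrays, where a small change may be understated.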
